A study of Mus musculus with 2 samples.

Results

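The nuclear-encoded genes of the mitochondrial respiratory chain and ATP synthase were described across the leukocyte classes of the pressure-overloaded mouse heart. They were taken as every row of the transcriptome matrix whose symbol starts with Nduf, with Sdh followed by a, b, c or d, with Uqcr, with Cox4 to Cox8, or with Atp5, and 13 names that hold "-ps" were left out. This rule used names only and gave 101 of 31192 genes: 48 of complex I, 8 of complex II, 8 of complex III, 19 of complex IV and 18 of complex V. Of these, 81 encode structural subunits in common use, 12 encode assembly factors of complexes I and II, and 8 encode alternative isoforms or isoform-like proteins of complex IV subunits.

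All cells came from hearts of mice that carried Cdh5-CreERT2, a Cre recombinase switched on by tamoxifen and driven by the promoter of an endothelial cadherin gene, together with the REFLEX reporter. The mice received tamoxifen and transverse aortic constriction (TAC), an operation that narrows the aorta and loads the left ventricle. Every cell shares this genotype and treatment. Strain, age, sex, time after surgery and the number of animals are not given in the sources used here, and no unoperated heart was analysed here. Cells sorted as CD45-positive or CD45-negative and as GFP-positive or GFP-negative were pooled into 1 transcriptome library and 1 hashtag library. CD45 is the surface antigen shared by leukocytes. No label ties a hashtag to a sorted fraction, so the comparison of interacting (GFP-positive) with other cells was not made.

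The respiratory chain passes electrons from NADH through complex I, or from succinate through complex II, to ubiquinone, then through complex III and cytochrome c to complex IV, which reduces oxygen. Complexes I, III and IV move protons out of the mitochondrial matrix, and complex V, the ATP synthase, makes ATP from their return. Most subunits are encoded in the nucleus and imported, while the mitochondrial genome contributes to every complex except complex II. Neutrophils are known for few mitochondria and a strong reliance on glycolysis, whereas macrophages that clear dead cells are known for an active oxidative metabolism.

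The matrix held 878 cells, of which 857 were kept, and the 21 left out had more than 25% mitochondrial counts. Clustering without the chain genes gave 11 clusters. Marker genes named 268 cells neutrophil-like, 186 monocyte-like, 54 macrophage-like, 161 B cell-like, 102 T cell-like, 31 conventional dendritic-like and 27 NK cell-like, and 28 cells stayed unnamed. Median counts per cell ran from 64299 in neutrophil-like to 256566 in conventional dendritic-like cells. Levels are given as CPM, the summed counts of a gene in a class per 1000000 counts of that class. The cells are of 1 pool and are not replicates, so no test between classes was possible and no p-value is given. Intervals are exact Poisson intervals for levels and exact Clopper-Pearson intervals for ratios, both at 95%. They cover counting error only and are too narrow if the values count reads and not molecules, which the sources used here do not say. Of the 101 genes, 98 had at least 50 counts over the kept cells and passed; Ndufa11b, Ndufs6b and Cox4i2 did not.

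Promoter sequences are shown first for 5 of these genes, some with and some without the motifs described next. RefSeq promoters of build GRCm38.p6, running from 250 bases before to 50 after a gene's start, were found for 81 of the 101 genes. They were searched on both strands for the letters GCGCANGC, the core of the site of NRF1 (nuclear respiratory factor 1, a known activator of respiratory genes), for the ETS core CCGGAAGT and for the YY1 core AAGATGGC. The NRF1 letters were present in 26 of the 81 promoters (32.1%), in 10.1% of 27025 promoters of all genes and in 13.4% of 17492 promoters of protein-coding genes. The YY1 letters were present in 12.3% against 2.88% of all promoters and 3.22% of protein-coding ones. For the ETS letters the shares were 6.17% against 4% and 5.29%, a small difference. The median share of G and C bases was 58.7% in the 81 promoters, 52.7% in all and 56.3% in protein-coding ones. The part of base content in the motif shares was not tested. All 3 complex II subunits with a promoter in the table had the NRF1 letters, as did 7 of 15 of complex V, 9 of 33 of complex I, 2 of 5 of complex III and 1 of 9 of complex IV. None of the 3 motifs was found in the promoters of 5 complex IV isoform or isoform-like genes, Cox7a2l among them. At least 1 motif was found in 37 of the 76 other promoters of the chain and in 15.6% of promoters of all genes. Among the 9 promoters of common complex IV subunits it was 2, and Cox7a2, the common partner of Cox7a1, had none. Absence of these letters therefore does not set the isoforms apart from common complex IV genes. The 250 bases before the start follow, 5′ to 3′ on the gene's strand, with matches in capitals (overlapping matches of both strands run together). Ndufaf4 and Ndufc2 are genes of wide range across classes, Cox6a1 is the common form of a complex IV subunit, and Cox7a1 and Cox8b are isoforms best known from muscle.
Ndufaf4, chr4:24897833-24898082, plus strand: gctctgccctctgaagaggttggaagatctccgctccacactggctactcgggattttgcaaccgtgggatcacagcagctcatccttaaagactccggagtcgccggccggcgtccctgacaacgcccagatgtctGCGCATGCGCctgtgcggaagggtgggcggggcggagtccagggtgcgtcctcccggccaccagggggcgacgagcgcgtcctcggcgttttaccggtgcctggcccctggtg
Ndufc2, chr7:97399753-97400002, plus strand: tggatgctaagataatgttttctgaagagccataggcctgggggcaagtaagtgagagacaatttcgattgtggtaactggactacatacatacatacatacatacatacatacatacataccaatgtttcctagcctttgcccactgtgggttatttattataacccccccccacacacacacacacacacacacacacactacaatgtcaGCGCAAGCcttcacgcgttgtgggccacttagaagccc
Cox6a1, chr5:115348959-115349208, minus strand: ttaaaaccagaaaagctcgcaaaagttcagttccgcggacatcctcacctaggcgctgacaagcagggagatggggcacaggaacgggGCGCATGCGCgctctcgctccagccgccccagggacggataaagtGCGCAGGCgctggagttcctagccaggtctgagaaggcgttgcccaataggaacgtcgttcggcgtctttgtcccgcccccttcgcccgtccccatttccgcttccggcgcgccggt
Cox7a1, chr7:30183921-30184170, plus strand: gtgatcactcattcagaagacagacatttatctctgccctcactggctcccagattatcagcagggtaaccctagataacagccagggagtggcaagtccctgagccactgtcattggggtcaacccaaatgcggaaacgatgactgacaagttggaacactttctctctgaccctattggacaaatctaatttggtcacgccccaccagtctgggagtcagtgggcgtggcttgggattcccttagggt
Cox8b, chr7:140900447-140900696, minus strand: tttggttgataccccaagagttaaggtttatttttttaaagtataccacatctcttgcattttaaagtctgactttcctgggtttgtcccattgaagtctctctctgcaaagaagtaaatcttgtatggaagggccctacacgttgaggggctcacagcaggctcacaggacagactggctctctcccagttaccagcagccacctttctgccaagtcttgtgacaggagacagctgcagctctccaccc
Ndufaf4, Ndufc2 and Cox6a1 carry the NRF1 letters upstream, Ndufaf4 and Cox6a1 with a pair of overlapping matches, and the 2 isoform promoters carry none. A match describes letters in this window and is not evidence of binding, and its absence says nothing of the factor.

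With all hashtags pooled, the chain as a whole was lowest in neutrophil-like and highest in macrophage-like cells among the 7 named classes. The 81 structural subunits summed to 12049 CPM (95% interval 11999.5 to 12099.6) in neutrophil-like cells, 14255 in B cell-like, 17927 in T cell-like, 20954 in monocyte-like and 24259 (24179 to 24339) in macrophage-like cells. The smaller classes lay between, at 20476 CPM in NK cell-like and 22090.1 CPM in conventional dendritic-like cells. Single cells were ordered much the same way: the median cell held 11433 CPM in neutrophil-like, 13502 in B cell-like, 15811 in T cell-like, 19374 in monocyte-like and 22951 among macrophage-like cells. The range from the lower to the upper quartile of cells reached from 8790 to 14961 CPM in the neutrophil-like class and from 18324 to 25995 CPM in the macrophage-like class, so these ranges do not overlap, while those of B and T cell-like cells do.

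**Figure D1:**
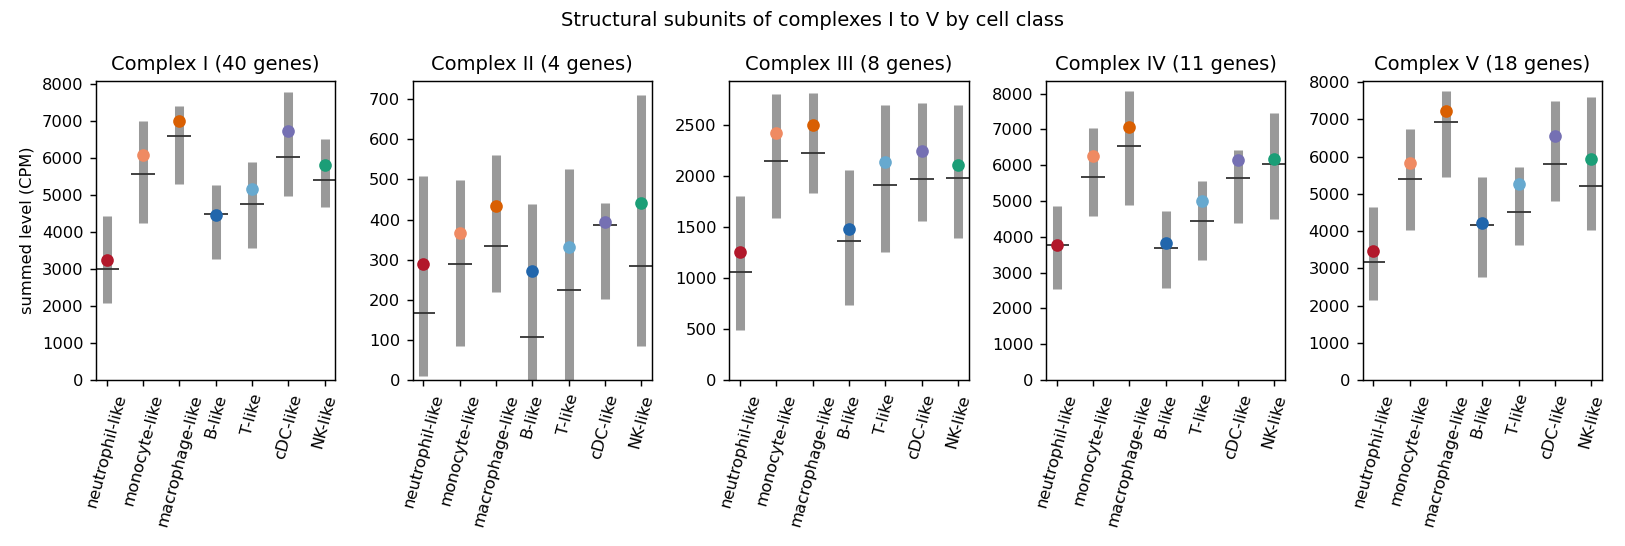
Summed level of the structural subunits of each complex (CPM, y axis, from 0) in 7 classes (x axis; cDC is conventional dendritic, B, T and NK the lymphoid classes); coloured points are class sums, grey bars the range between the quartiles of cells and dashes the median cell. Macrophage-like cells are highest of the 5 larger classes in all 5 complexes, and neutrophil-like cells are lowest in all but complex II, where B cell-like cells lie at 272 CPM and neutrophil-like cells at 289 CPM.

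Against all other kept cells, the summed structural subunits were at a ratio of 0.602 (0.599 to 0.605) in neutrophil-like cells, a log2 ratio of -0.73. The ratio was 0.746 in B cell-like (log2 -0.42), 0.963 in T cell-like (log2 -0.05), 1.21 in monocyte-like (log2 0.27) and 1.38 in macrophage-like cells (log2 0.46). These ratios depend on what else each class expresses: the median log2 ratio over all 18243 genes with at least 50 counts was itself -0.48 in neutrophil-like, -0.19 in monocyte-like and -0.19 among macrophage-like cells, and 0.02 and -0.02 in B and T cell-like cells. Relative to that median, the sums stood at -0.26, 0.46, 0.66, -0.44 and -0.0345 in neutrophil-, monocyte-, macrophage-, B cell- and T cell-like cells. The neutrophil-like ratio shrinks most on this scale, and B cell-like cells are then the lowest. Without cells that had counts of 2 or more cardiomyocyte markers the neutrophil-like log2 ratio was -0.41. This filter left 96 of 268 neutrophil-like, 43 of 186 monocyte-like and 4 of 54 macrophage-like cells. It left 85 of 161 B cell-like and 46 of 102 T cell-like cells, so it also changes the cells compared with. The part of cardiomyocyte RNA in any shift under this filter, here and below, was not tested. The T cell-like ratio changed sign, to 0.13, when each cell was weighted alike. It also changed sign under the cardiomyocyte marker filter and with whole-number values only. The monocyte-like ratio changed sign, to -0.21, when coarser clusters moved the classical monocytes into the macrophage-like class. In each of the 4 hashtags and among cells named doublet, the structural sum of neutrophil-like cells (9514 to 13231 CPM) was below that of monocyte-like cells (18526 to 21685 CPM). Macrophage-like cells were not highest in every hashtag. In A965 they held 20685 CPM (9 cells), below monocyte-like (21083 CPM) and conventional dendritic-like cells (20951 CPM, 11 cells). In A951 they held 23232 CPM (17 cells), below 7 conventional dendritic-like cells (24534 CPM). They were highest in A952 (25074.5 CPM, 24 cells) and in A953 (32797 CPM, 2 cells).

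Gene by gene, 61 of the 98 genes were at least 1.5-fold lower in neutrophil-like cells on the log2(CPM + 1) scale and 4 were at least 1.5-fold higher, where 46.1% of all genes were lower and 14.1% higher. In macrophage-like cells 32 were higher and 7 lower, against 14.8% and 29.7% of all genes. B cell-like cells had 8 higher and 34 lower, against 27.6% and 27.1%, and T cell-like cells 11 higher and 13 lower, against 25.5% and 28.2%. Monocyte-like cells had 2 higher and 8 lower, against 10.1% and 29.1%. Centred on the median of all genes, the chain had 9 higher and 45 lower in neutrophil-like (26.7% and 30.8% of all genes), 30 higher and 6 lower in monocyte-like (15% and 22.5%), and 58 higher and 4 lower in macrophage-like cells (20.2% and 22.9%). On the uncentred scale, the shares of chain genes were above the background for the lower calls of neutrophil-like and B cell-like cells and the higher calls of macrophage-like cells, and below it in both directions in T cell-like and monocyte-like cells. The median log2 ratio of the 98 genes was -0.96 in neutrophil-like, -0.33 in B cell-like, -0.05 in T cell-like, 0.24 in monocyte-like and 0.44 among macrophage-like cells.

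Of the 90 genes with at least 20 CPM in 1 of the 5 larger classes, 55 (61.1%) were highest in macrophage-like cells, compared with 18.5% of the 7864 genes of all kinds that reach that level. Neutrophil-like cells were lowest for 61 of the 90 (67.8%), compared with 40.9% of the 7864. With 1 CPM added to each level, the range across classes was narrow: the highest class exceeded the lowest by a median of 2.82-fold for the 90 genes (1.41-fold to 55.3-fold) and by a median of 4.94-fold for the 7864.

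**Figure D2:**
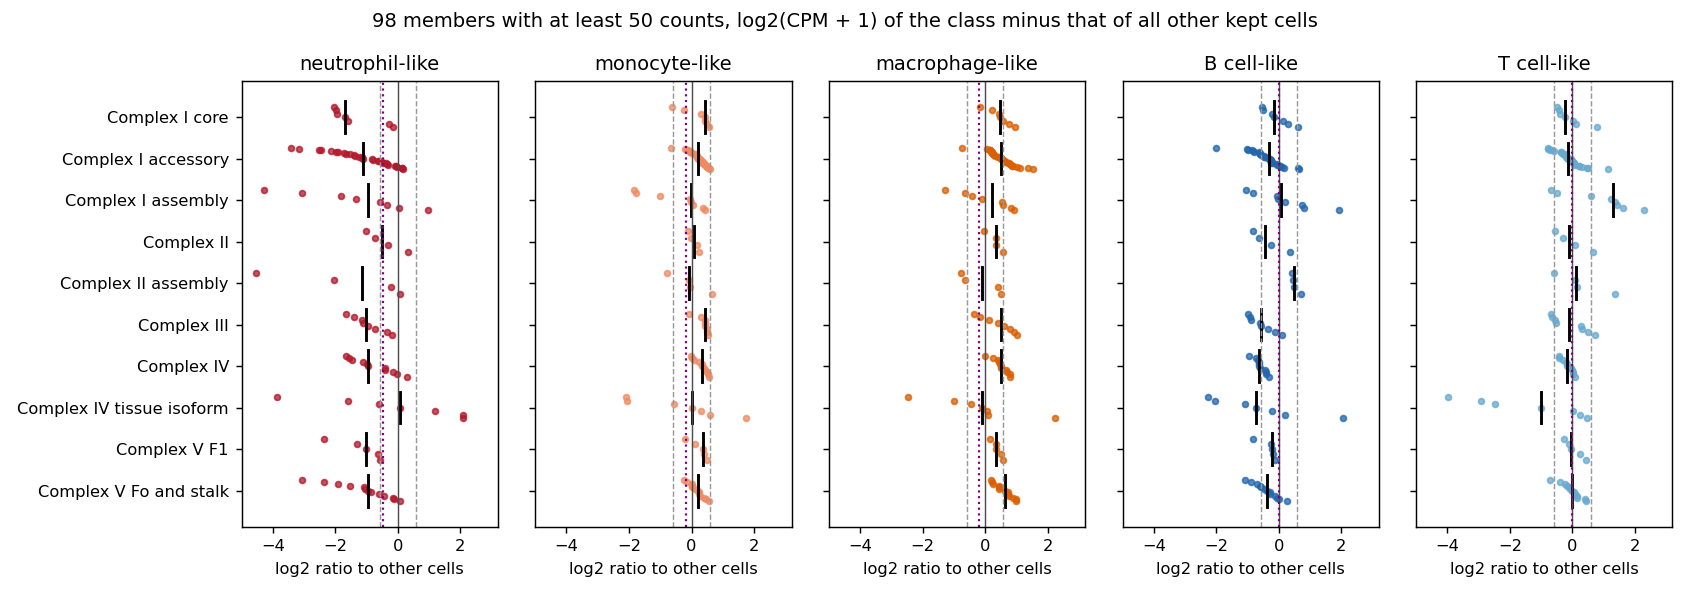
Log2 ratio of each of the 98 genes that passed (x axis, class against all other kept cells on log2(CPM + 1)) by functional group (y axis) in 5 classes; black ticks are group medians, dashed lines mark 1.5-fold and the dotted line the median of all 18243 genes. Core subunits of complex I have the lowest group median in neutrophil-like cells (-1.70), and complex I assembly factors the highest in T cell-like cells (1.30).

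Complex I oxidises NADH, and its 7 nuclear-encoded core subunits carry the flavin and the iron-sulfur clusters. Their sum was 234 CPM in neutrophil-like, 484 in T cell-like, 496 in B cell-like, 615 in monocyte-like and 763 among macrophage-like cells. In neutrophil-like cells the ratio to all others was 0.384 (0.372 to 0.396), the lowest among the structural groups, and 5 of the 7 subunits were at least 1.5-fold lower, against 46.1% of all genes. Ndufs8, an iron-sulfur protein next to the quinone site, stood at 37.7 CPM in neutrophil-like, 91.3 in B cell-like, 97.8 in T cell-like, 153 in monocyte-like and 217 among macrophage-like cells. Its neutrophil-like ratio was 0.256 (0.237 to 0.276) and its macrophage-like ratio 1.93 (1.86 to 2.01), so it separates these classes at both ends. Ndufv1, which binds NADH and the flavin, stood at 14.3, 38.7, 36.6, 51.4 and 48.2 CPM in neutrophil-, B cell-, T cell-, monocyte- and macrophage-like cells. Its partner Ndufv2 stood at 29.5, 88.4, 79.9, 128 and 131 CPM in the same order. Both were lowest in neutrophil-like cells (log2 of Ndufv2 -1.97, and -1.36 without cells with cardiomyocyte markers), and monocyte- and macrophage-like cells were the top 2 for each.

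Ndufs1 and Ndufs7 did not follow this pattern. Ndufs1, the largest iron-sulfur subunit, was at 20.04 CPM in monocyte-like, 25.2 in macrophage-like, 25.3 in neutrophil-like, 40.5 in B cell-like and 45.0 in T cell-like cells. It was the only one of the 7 with its lowest level in monocyte-like cells, and its T cell-like ratio was 1.74 (1.57 to 1.92). That call was lost when cells with counts of 2 or more cardiomyocyte markers were left out (log2 from 0.77 to 0.05) and with each cell weighted alike (0.33). Ndufs7, which carries the last iron-sulfur cluster, ranged only from 78.8 CPM in neutrophil-like to 128 CPM in macrophage-like cells, 1.62-fold. Ndufs3, a subunit of the peripheral arm, read 17.8 CPM in neutrophil-like and 65.6 to 85.6 CPM in the 4 other large classes, but 96% of its counts sat in fractional values, so its level is uncertain.

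**Figure D3:**
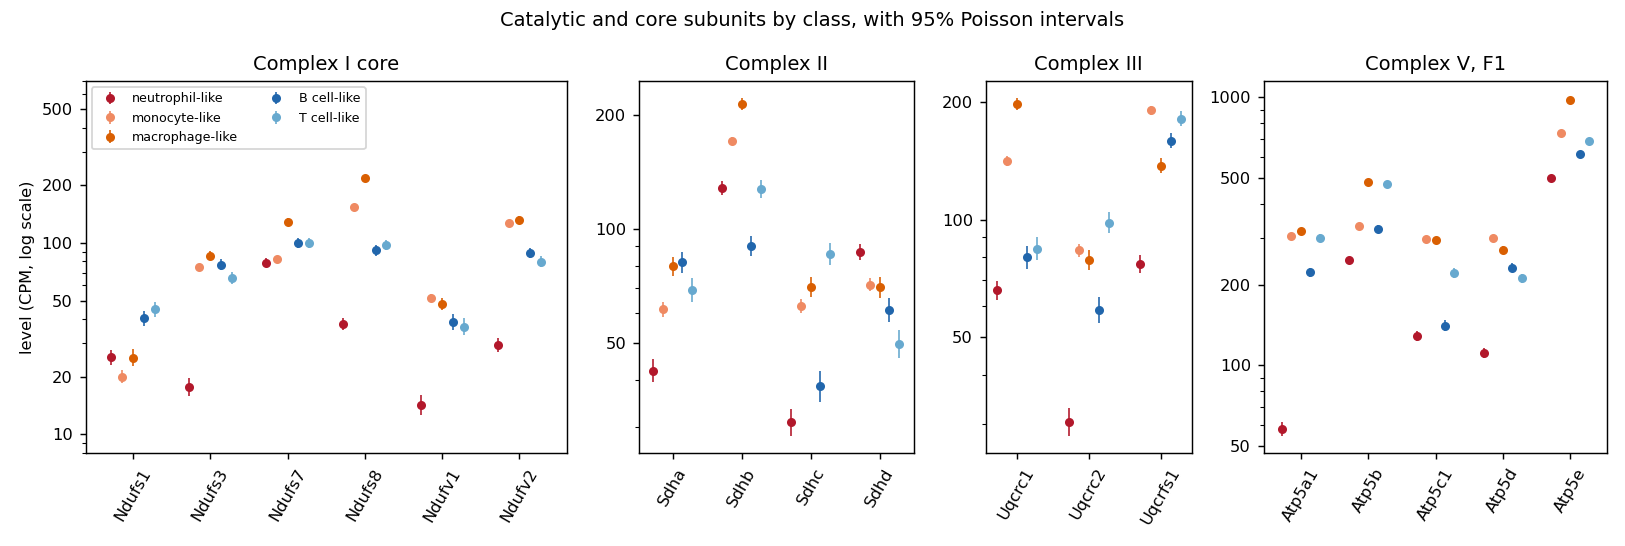
Level (CPM, log y axis) of core or catalytic subunits of complexes I, II, III and V (x axis) in the 5 larger classes; points are class levels and bars 95% Poisson intervals. Neutrophil-like cells (dark red) are lowest for most subunits, while Sdhd is highest there at 86.9 CPM and Ndufs1 is lowest in monocyte-like cells at 20.04 CPM.

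The accessory subunits, which surround the core and are needed for assembly and stability, repeated the class order with a wide range among single genes. The 31 that passed had a neutrophil-like median log2 ratio of -1.11, with 20 at least 1.5-fold lower and 0 higher, and a macrophage-like median of 0.50, with 12 higher and 1 lower. The shares of all genes were 46.1% lower and 14.1% higher in neutrophil-like cells, and 14.8% higher and 29.7% lower in macrophage-like cells. Ndufa5, a subunit of the peripheral arm, varied most: it stood at 8.54 CPM in neutrophil-like, 74.5 in B cell-like, 74.9 in monocyte-like, 155 in macrophage-like and 163 in T cell-like cells. The top 2 are close, while the neutrophil-like ratio was 0.0854 (0.0725 to 0.0999), with counts in 26 of 268 cells. Ndufa9, at the junction of the arms, stood at 10.6 CPM in neutrophil-like and 46.8 to 88.1 CPM in the other large classes. Ndufc1, a small membrane-arm subunit, stood at 36.1 CPM in neutrophil-like, 72.5 in B cell-like, 84.1 in T cell-like, 151 in monocyte-like and 317 among macrophage-like cells. Its macrophage-like ratio of 2.92 (2.82 to 3.02) was the highest of any structural subunit. Its neutrophil-like log2 ratio moved from -2.14 to -0.68 without cells that had counts of 2 or more cardiomyocyte markers and to -1.42 with each cell weighted alike. Ndufc2, whose promoter is printed above, read 22.4 CPM in neutrophil-like and 141 to 250.1 CPM in the other large classes, with 58% of its counts in fractional values.

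At the other end, Ndufa1 (220 to 310 CPM, 1.41-fold) and Ndufa3 (184 to 266 CPM, 1.44-fold), both small membrane-arm subunits, were nearly level across the 5 classes. Chosen after their values were seen, Ndufa8 and Ndufa6 departed from the common order. Ndufa8 was lowest in B cell-like cells (23.9 CPM, ratio 0.24, 0.212 to 0.271), at 59.8 CPM in T cell-like cells and at 99.0 to 128 CPM in the 3 myeloid classes. Ndufa6 was lower in macrophage-like cells (299.5 CPM) than in monocyte-like cells (597 CPM), the reverse of most subunits.

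Complex I assembly factors, which build the complex and are not part of it, had their highest summed level in T cell-like cells. Their sum was 110 CPM in neutrophil-like, 160 in monocyte-like, 186 in B cell-like, 202 in macrophage-like and 277 in T cell-like cells, and 6 of the 8 were at least 1.5-fold higher in T cell-like cells, against 25.5% of all genes. Ndufaf4 had the widest range of all 90 genes, 55.3-fold with 1 CPM added to each level. It stood at 0.162 CPM in neutrophil-like, 5.77 in monocyte-like, 27.7 in B cell-like, 28.4 in macrophage-like and 63.3 in T cell-like cells. The neutrophil-like value is 3 counts in 3 of 268 cells, a ratio of 0.00758 (0.00156 to 0.0222), and the T cell-like ratio was 5.18 (4.70 to 5.71). Ndufaf6 stood at 0.122 CPM in neutrophil-like, 3.64 in monocyte-like, 5.01 in macrophage-like, 18.9 in T cell-like and 21.4 among B cell-like cells. These lymphoid levels rest on few cells, 8 T cell-like and 11 B cell-like with any count, and after thinning every cell to 25000 counts the median factor of this group was seen in 3.36% of neutrophil-like, 8.33% of T cell-like and 12.96% of macrophage-like cells (4.29%, 11.8% and 22.2% before thinning). These shares go against the CPM, so the class order of this group depends on the measure. Ndufaf7, a methyltransferase, had its highest level in neutrophil-like cells (45.1 CPM, ratio 1.99, 1.83 to 2.16). Ndufaf3 also departed from the order of the sum, highest in monocyte-like (28.2 CPM) and lowest in T cell-like cells (16.7 CPM).

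Complex II oxidises succinate and is also an enzyme of the citrate cycle. It was the complex least lowered in neutrophil-like cells, with a sum of 289 CPM there, 272 in B cell-like, 332 in T cell-like, 366 in monocyte-like and 434 among macrophage-like cells, and a neutrophil-like ratio of 0.798 (0.775 to 0.821). Its 4 subunits disagreed among themselves. Sdha, the flavoprotein that holds the succinate site, stood at 42.4 CPM in neutrophil-like, 61.5 in monocyte-like, 69.2 among T cell-like, 79.7 in macrophage-like and 81.8 in B cell-like cells. Sdhb, the iron-sulfur subunit, stood at 90.2 CPM in B cell-like, 128 in T cell-like, 128 in neutrophil-like, 171 in monocyte-like and 214 among macrophage-like cells. The B cell-like class is thus among the top 2 for Sdha, nearly level with macrophage-like cells, and lowest for Sdhb. The neutrophil-like log2 ratio of Sdha went from -0.72 to -0.34, within 1.5-fold, without cells with cardiomyocyte markers.

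Of the membrane anchors, Sdhc stood at 31.0 CPM in neutrophil-like, 38.6 in B cell-like, 62.8 in monocyte-like, 70.3 in macrophage-like and 86.0 in T cell-like cells. Sdhd ran the other way, at 49.8 CPM in T cell-like, 61.2 in B cell-like, 70.3 in macrophage-like, 71.4 in monocyte-like and 86.9 in neutrophil-like cells, with a neutrophil-like ratio of 1.27 (1.199 to 1.341). The anchors of this complex therefore had opposite class orders at both ends. Sdhaf4, a factor that helps to join Sdha to Sdhb, stood at 0.0811 CPM in neutrophil-like and 13.1 to 26.1 CPM in the other large classes. That neutrophil-like value rests on counts in 2 of 268 cells, a ratio of 0.00337 (0.000243 to 0.0144). Of the other 3 factors, Sdhaf3 was also at least 1.5-fold lower in neutrophil-like cells (0.856 CPM), while Sdhaf1 and Sdhaf2 were at 45.6 and 40.6 CPM there and within 1.5-fold of the other cells.

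Complex III passes electrons from ubiquinol to cytochrome c. Its 8 subunits summed to 1258 CPM in neutrophil-like, 1479 in B cell-like, 2139 in T cell-like, 2424 in monocyte-like and 2507 among macrophage-like cells, and 6 were at least 1.5-fold lower in neutrophil-like cells, against 46.1% of all genes. Uqcrb, which binds near the quinone site, varied most: 91.3 CPM in neutrophil-like, 144 in B cell-like, 165 in T cell-like, 309 in monocyte-like and 448 among macrophage-like cells. It separated myeloid mononuclear cells from lymphoid cells. Uqcrh, the hinge protein of cytochrome c1, instead peaked in T cell-like cells, at 897 CPM, and stood at 290.4 in neutrophil-like, 461 in macrophage-like, 533 in B cell-like and 716 in monocyte-like cells. The core proteins split in the same manner: Uqcrc1 was highest in macrophage-like cells (197 CPM, ratio 1.91, 1.83 to 1.99), and Uqcrc2 in T cell-like cells (98.2 CPM). Both were lowest in neutrophil-like cells, at 66.0 and 30.4 CPM, but the Uqcrc1 log2 ratio there turned from -0.95 to 0.28 without cells that had counts of 2 or more cardiomyocyte markers, and that of Uqcrc2 went from -1.40 to -0.81. Uqcrfs1, the Rieske iron-sulfur protein that hands electrons on to cytochrome c1, ranged from 77.0 CPM in neutrophil-like to 190.1 CPM in monocyte-like cells, with 137 CPM in macrophage-like cells. Uqcr10 (171 to 345 CPM) and Uqcrq (224 to 527 CPM), 2 small subunits, varied least, and both were lowest in B cell-like cells and highest in macrophage-like cells.

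Complex IV reduces oxygen, and its 11 common nuclear-encoded subunits surround a core made in the mitochondrion. They summed to 3782 CPM in neutrophil-like, 3825 in B cell-like, 5005 in T cell-like, 6252 in monocyte-like and 7068 among macrophage-like cells. The 2 lowest classes nearly coincide here, and in B cell-like cells all 11 subunits lay below the other cells, 7 of them by at least 1.5-fold, against 27.1% of all genes. Cox4i1, the largest nuclear-encoded subunit, stood at 507 CPM in neutrophil-like, 711 in B cell-like, 917 in T cell-like, 1050.5 in macrophage-like and 1151 in monocyte-like cells. Ndufa4, named for complex I but a subunit of complex IV, varied most, at 129 CPM in neutrophil-like, 197 in B cell-like, 359 in T cell-like, 464 in monocyte-like and 535 among macrophage-like cells. Cox7b stood at 124, 217, 281, 372 and 499 CPM in the same order, and Cox5a, a matrix-side subunit, at 153, 196, 227, 355 and 462 CPM. All 3 doubled or more between neutrophil-like and macrophage-like cells.

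Cox8a, Cox7a2 and Cox6a1 behaved differently. Cox8a, a small membrane subunit, peaked at 699.6 CPM in neutrophil-like cells (ratio 1.23, 1.21 to 1.26) and stood at 400.3 in B cell-like, 589 in macrophage-like, 594 in monocyte-like and 599 in T cell-like cells, with 38% of its counts in fractional values. Its B cell-like log2 ratio went from -0.62 to -0.07 with whole-number values only. Cox7a2 (291 to 507 CPM) and Cox6a1 (422 to 739 CPM) were lowest in B cell-like cells, with ranges of 1.74-fold and 1.75-fold. Cox7c read 182 CPM in neutrophil-like and 361 to 563 CPM in the other large classes, but 92% of its counts were fractional and its neutrophil-like log2 ratio went from -1.46 to 1.25 with whole-number values only, so its direction is uncertain.

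Several complex IV subunits have a second form best known from heart and skeletal muscle, testis or lung, and these were sparse in all classes. Cox6a2, the muscle form of Cox6a1, stood at 48.4 CPM in neutrophil-like cells (ratio 4.49, 4.09 to 4.94) and at 4.88 in monocyte-like, 2.81 in macrophage-like and 1.73 in T cell-like cells. Its B cell-like level of 56.1 CPM came almost wholly from 1 cell that held 96.4% of those counts, and without that cell it was 2.04 CPM. That cell held 34.8% of the gene's counts over all kept cells. It is also among the cells compared with in the neutrophil-like ratio, so it lowers the 4.49. Cox7a1, the muscle form of Cox7a2, stood at 19.2 CPM in macrophage-like, 11.2 in neutrophil-like and 1.12 CPM or less in monocyte-, B cell- and T cell-like cells. Cox8b, the muscle form of Cox8a, stood at 7.03 CPM (ratio 7.90, 5.89 to 10.7) in neutrophil-like and 0.524 to 1.27 CPM in the other 4 classes. Their common partners never fell below 422 CPM (Cox6a1), 291 CPM (Cox7a2) and 400.3 CPM (Cox8a) in the 5 larger classes, without correction for transcript length. Cox4i2, the lung form of Cox4i1, had counts in 16 cells and at most 1.05 CPM in the 7 named classes.

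Cardiomyocyte markers were also highest in neutrophil-like cells. The 10 cardiomyocyte markers, among them Tnnt2, Myl2 and Mb, summed to 195 CPM in neutrophil-like cells and to 27.1 to 34.0 CPM in the other 4 large classes. In neutrophil-like cells 8 of the 10 were at least 1.5-fold higher (14.1% of all genes were), none was at 0 in these 5 classes, and single cells ranged from 0 to 3250.5 CPM. Among neutrophil-like cells of hashtag A965, where the markers summed to 22.9 CPM, Cox6a2 was at 1.37 CPM, Cox7a1 at 0.456 and Cox8b at 0.456. Among those of hashtag A951, with markers at 275 CPM, they were at 60.8, 16.5 and 11.9 CPM. The 19 cells of hashtag A953 did not follow the markers for every gene: with markers at 69.0 CPM, Cox7a1 was at 0 and Cox8b at 14.5 CPM. Nor did the 29 cells named doublet, with the highest markers (348 CPM), Cox6a2 at 93.8, Cox7a1 at 26.7 and Cox8b at 1.81 CPM. In the 96 neutrophil-like cells with counts of fewer than 2 markers, Cox6a2 was at 14.97 CPM, against 4.79 CPM in the other such cells, and Cox7a1 at 4.04, against 0.722. Cox8b was at 0.336, against 0.919, which turns its direction. Macrophage-like cells, highest for Cox7a1, had markers at 33.8 CPM. The part of cardiomyocyte RNA in the isoform levels was not tested beyond these values.

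Cox6b2, the testis form of Cox6b1, followed another order. It stood at 25.7 CPM in monocyte-like cells (ratio 3.65, 3.26 to 4.09), 23.9 in conventional dendritic-like and 13.9 in macrophage-like cells, 2.79 in B cell-like and 0.162 in neutrophil-like cells, and it was not detected in 102 T cell-like cells, where 0 counts allow up to 0.355 CPM. It was not detected in most cells of the classes described: 25 of 186 monocyte-like cells had a count. Cox7a2l, a factor of supercomplex assembly that resembles Cox7a2, was common, at 148 CPM in neutrophil-like, 297 in macrophage-like, 446 in B cell-like, 506 in monocyte-like and 522 in T cell-like cells, with 79% of its counts fractional. Cox7b2 and Cox6c2 were at 2.54 CPM or less in all 7 named classes.

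**Figure D4:**
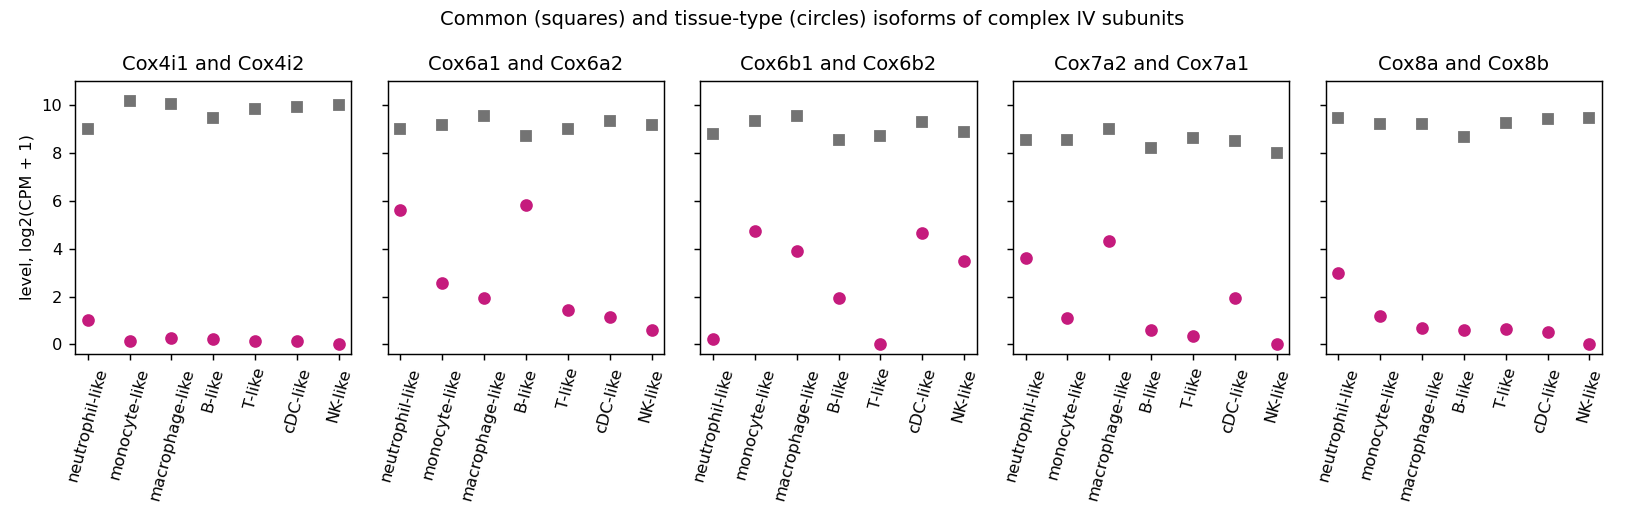
Level of common forms (grey squares) and tissue-type forms (magenta circles) of 5 complex IV subunits, as log2(CPM + 1) on the y axis, in 7 classes on the x axis. Common forms lie above the tissue-type forms in every pair and class; Cox6a2 reaches 48.4 CPM in neutrophil-like cells, and the B cell-like point of 56.1 CPM rests on 1 cell.

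Complex V consists of the catalytic F1 head and the membrane-bound Fo part with its stalk. The 5 F1 subunits summed to 1047 CPM in neutrophil-like, 1537 in B cell-like, 1893 in T cell-like, 1966 in monocyte-like and 2342 among macrophage-like cells, and 4 of the 5 were at least 1.5-fold lower in neutrophil-like cells, against 46.1% of all genes. The alpha and beta subunits, which form the head together in equal number, differed in the size of that gap. Atp5a1 (alpha) stood at 57.9 CPM in neutrophil-like, 223 in B cell-like, 298 in T cell-like, 303 in monocyte-like and 317 among macrophage-like cells, a neutrophil-like ratio of 0.191 (0.179 to 0.203). Atp5b (beta), which holds the catalytic sites, stood at 247, 324, 476, 330.01 and 483 CPM in the same order, a ratio of 0.636 (0.617 to 0.656), whose log2 value went from -0.65 to -0.10 without cells with cardiomyocyte markers. The stalk subunits Atp5c1 (gamma) and Atp5d (delta) ranged from 129 to 296 CPM and from 111 to 298 CPM, both highest in monocyte-like cells, and Atp5e (epsilon) from 501 to 980 CPM, highest in macrophage-like cells.

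In the Fo part, 3 genes encode the same c-ring subunit: Atp5g1, Atp5g2 and Atp5g3. Atp5g3, whose counts are 96% whole, stood at 24.2 CPM in neutrophil-like, 90.9 in B cell-like, 122 in monocyte-like, 142 among T cell-like and 166 in macrophage-like cells, a neutrophil-like ratio of 0.189 (0.171 to 0.208). Atp5g1 and Atp5g2 read 57.2 and 28.4 CPM in neutrophil-like and 328 and 363 CPM in macrophage-like cells. Their counts are 92% and 100% fractional, and the neutrophil-like log2 ratio of Atp5g2 turned from -3.08 to 0.71 and that of Atp5g1 went from -1.91 to -0.10 with whole-number values only, so neither level is certain. Of the 13 Fo and stalk genes, 9 were at least 1.5-fold lower in neutrophil-like cells and 7 at least 1.5-fold higher in macrophage-like cells, against 46.1% and 14.8% of all genes. Atp5md (324 to 469.5 CPM), which helps the synthase to form dimers, and Atp5o (14.1 to 23.1 CPM), the oligomycin-sensitivity subunit, varied least. Fractional values held 64% and 89% of their counts. Without them the neutrophil-like log2 ratio of Atp5o turned from -0.59 to 0.60 and the macrophage-like log2 ratio of Atp5md from 0.43 to -0.30, so both directions are uncertain. A second row of the same symbol, Atp5o.1, was not level: it stood at 20.9 CPM in neutrophil-like (log2 -1.54) and 53.0 to 71.5 CPM in the other large classes, with 97% of its counts fractional.

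Neither the neutrophil-like nor the monocyte-like class was uniform. The neutrophil-like cells fell into a cluster led by Il23a, Gpr84 and Icam1 (117 cells) and one led by the granule genes Retnlg, Ngp and Camp (151 cells), a comparison added after the data were seen. The structural subunits summed to 14821 CPM in the Il23a-led and 10253 CPM in the Retnlg-led cluster. Of 89 chain genes that passed, 39 were at least 1.5-fold higher in the Il23a-led cluster and 3 lower, against 37.5% higher and 16.5% lower among 9661 genes. The share of higher genes is thus near the background, and that of lower genes is below it. The median log2 ratio of the 89 genes was 0.54, against 0.29 for all 9661, so part of the difference was shared by genes at large. Among genes with mostly whole counts and over 50 CPM in the Il23a-led cluster, the largest differences were in Sdhaf1, a complex II assembly factor (89.6 against 17.02 CPM), Ndufs4, a complex I accessory subunit (81.0 against 19.5 CPM), Atp5mpl, a small ATP synthase protein (271 against 71.0 CPM) and Cox7b (220 against 61.5 CPM). Lower in the Il23a-led cluster were Cox7a1 (1.65 against 17.5 CPM), Sdhd (65.6 against 101 CPM) and Cox7c (138 against 209.5 CPM, mostly fractional). The summed cardiomyocyte markers were 267 CPM in the Il23a-led and 148 CPM in the Retnlg-led cluster, so Cox7a1 and the markers ran in opposite directions.

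Among monocyte-like cells, the 94 cells led by Chil3, with markers of classical monocytes, held 22674 CPM of structural subunits, and the 80 cells led by Cd300e and Ace, with markers of patrolling monocytes, 16208 CPM. Of 94 chain genes that passed, 39 were at least 1.5-fold higher in the Chil3-led cluster and 4 lower, against 23.0% and 31.6% of 12183 genes, and the median log2 ratio was 0.54 against -0.14 for all genes. Cox6b2 differed most, at 35.4 against 1.36 CPM, a ratio of 26.0 (14.8 to 50.5). Ndufs8 stood at 191 against 70.6 CPM, Sdhc at 77.7 against 28.2 CPM and Sdhaf4 at 22.3 against 6.03 CPM. The 4 lower genes were Sdhaf1 (38.6 against 86.0 CPM), Ndufs1, Sdhaf3 and Cox6a2. The Chil3-led cells also had more counts, a median of 227154 against 105902 per cell, and the part of depth in this difference was not tested.

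Other genes of energy metabolism did not all share the class order of the chain. The 13 mitochondrially encoded subunits summed to 41103 CPM in neutrophil-like, 34404 in B cell-like, 30875 in T cell-like, 24151 in macrophage-like and 20143 in monocyte-like cells. By class sum, neutrophil-like cells were thus highest of these classes here and lowest for the nuclear-encoded partners. That sum rests on part of the cells: the median neutrophil-like cell held 21380 CPM, with quartiles at 7550 and 56312 CPM. The median cell held 32976 CPM in B cell-like, 30516 in T cell-like, 21504 in macrophage-like and 19207 in monocyte-like cells. By median cell, neutrophil-like cells were therefore not highest. The median mitochondrial share was 4.15% in neutrophil-like cells of hashtag A951 and 0.433% to 0.850% in those of the other 3 hashtags. In monocyte-like cells it was 2.08% in A951 and 1.70% to 2.13% in the other 3, so the order of these 2 classes differed between hashtags. The nuclear-encoded structural sum of the neutrophil-like cells was 12216 CPM (A951) and 9514 to 12078 CPM (others).

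Of 17 glycolysis genes, 4 were at least 1.5-fold higher and 2 lower in neutrophil-like cells, 5 higher and 2 lower in macrophage-like cells, 0 higher and 16 lower in B cell-like cells, and 0 higher and 14 lower in T cell-like cells. Among all genes, 14.1% were higher and 46.1% lower in neutrophil-like cells, and 14.8% and 29.7% in macrophage-like cells. For B cell-like cells these shares were 27.6% and 27.1%, and for T cell-like cells 25.5% and 28.2%. Their sum was 3840.3 CPM in neutrophil-like, 3927 in monocyte-like and 4639 among macrophage-like cells, compared with 1237 in B cell-like and 2320 in T cell-like cells. Neutrophil-like and monocyte-like cells thus lay close together for glycolysis and far apart for the structural chain subunits (12049 and 20954 CPM). Slc2a3, a glucose transporter, was at 159 CPM in neutrophil-like cells and at 8.66 to 23.9 CPM in the other large classes. Of 14 citrate cycle genes, 10 were lower and 0 higher in neutrophil-like cells, and 6 were higher and 0 lower in macrophage-like cells, against the same shares of all genes as for glycolysis. The isocitrate dehydrogenase Idh2 stood at 58.3 CPM in macrophage-like cells against 3.84 CPM in neutrophil-like cells.

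Of 40 electron carriers and further assembly factors, 29 were lower and 3 higher in neutrophil-like cells, and 17 were higher and 6 lower in T cell-like cells. The shares of all genes were 46.1% lower and 14.1% higher in neutrophil-like cells, and 25.5% higher and 28.2% lower in T cell-like cells. Cycs, the cytochrome c that links complexes III and IV, stood at 114 CPM in neutrophil-like, 142 in B cell-like, 143 in T cell-like, 253 in macrophage-like and 278 in monocyte-like cells. Cox17, which carries copper towards complex IV, was the reverse, at 110.3 CPM in neutrophil-like and 21.8 to 36.9 CPM in the other large classes. Regulators of mitochondrial biogenesis were highest in B cell-like cells, where 8 of 13 were at least 1.5-fold higher and 1 lower, against 27.6% and 27.1% of all genes. Tfam, which packages and transcribes mitochondrial DNA, stood at 167 CPM in B cell-like, 31.7 in T cell-like, 15.4 in monocyte-like, 13.1 in macrophage-like and 0.270 in neutrophil-like cells. Nrf1, the factor whose letters were searched above, was at 40.7 CPM in B cell-like, 32.4 in T cell-like and 15.5 to 18.3 CPM in the 3 myeloid classes. Among the 5 larger classes the regulators summed highest in B cell-like cells (552 CPM), which were second lowest for the chain, while NK cell-like cells were high in both, at 539.5 and 20476 CPM.

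**Figure D5:**
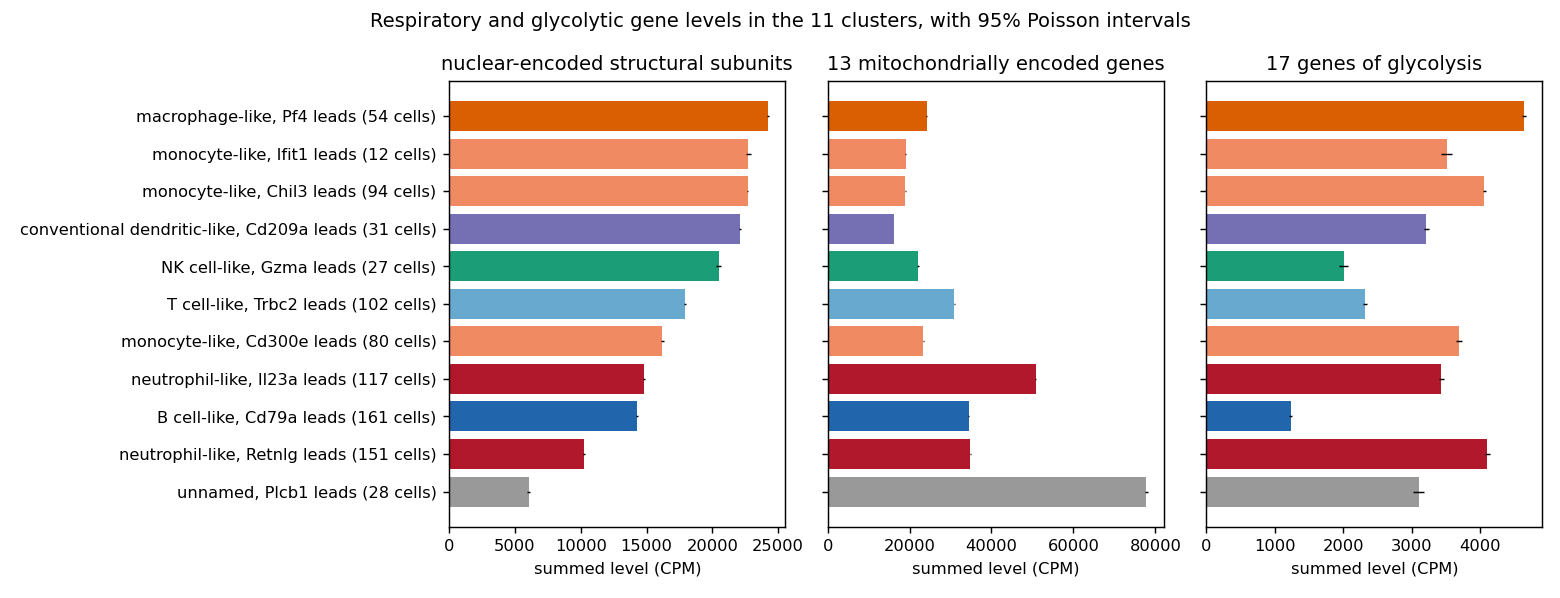
Summed level (CPM, x axis, from 0) of the nuclear-encoded structural subunits, the 13 mitochondrially encoded genes and 17 glycolysis genes in the 11 clusters (y axis, ordered by the first panel, with the leading gene and the number of cells); error bars are 95% Poisson intervals. Nuclear-encoded subunits run from 6056 CPM in the unnamed cluster to 24259 CPM in macrophage-like cells, and the unnamed cluster is highest for the mitochondrially encoded genes, at 77775 CPM.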

How the data were processed

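Both libraries of the pool were made by TAS-Seq from cells captured with BD Rhapsody, per the labels' protocols. The tools were R 4.3.1, STAR and STARsolo 2.7.10b and cutadapt 4.1, and the build GRCm39, per the submitters' processing notes. The deposited transcriptome file holds estimated counts per gene and cell, not normalized by the authors, in part as fractions. The deposited hashtag file holds whole counts per tag. The sources used here do not say whether these are reads or molecules, nor how fractions were assigned.

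Cells below 500 counts or 200 genes, or above 25% mitochondrial counts, were left out, and 857 of 878 stayed. Cells that the authors named doublet stayed in their classes, an alternative left them out, and no doublet caller was run. Cell names carry the authors' tag calls, which equal the tag with most hashtag counts in 490 of 826 singly named cells, and were used only to give values by tag. Counts scaled to 10000 per cell were clustered with scanpy 1.11.5 and leidenalg 0.10.2 (2000 variable genes without chain, pathway and mitochondrial genes, 30 components, 15 neighbours, resolution 1). A cluster took a name when at least 3 of a type's markers reached 50 CPM and were 2-fold above the remaining cells, and otherwise stayed unnamed. Since names were rebuilt here, they may differ from the study's.

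Genes with at least 50 counts over the kept cells passed. Log2 ratios use 1 CPM added to both sides, and sums use none. With 1 library there is no test, so a gene was called when its level differed by at least 1.5-fold. For shares of cells, counts were thinned to 25000 per cell, which left out no kept cell. The calculation was tested on simulated data. The members, groups and lists were chosen with earlier results of these data known. Genes named by rule were the catalytic and core subunits, the complex IV isoforms with their partners, and, in each of complexes I, III, IV and V, the 4 subunits with the largest and the 2 with the smallest range across classes of at least 50 cells, and the 3 assembly factors with the largest range; other named genes were chosen after their values were seen. RefSeq promoters were matched by symbol or synonym for 100 of 101 genes, and 81 had a full window. Atp5if1, which the rule for named genes lists, and protein sequences were not analysed here. The values of 1 further gene in that rule are not reported here. Alternatives were 10% mitochondrial counts, equal weight per cell, no cells named doublet, resolutions 0.5 and 1.5, centring on the median gene, a total without mitochondrial and the 50 most abundant genes, whole-number values only, no cells with 2 or more cardiomyocyte markers, at least 500 counts per gene, and a fold of 2.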

Additional observations from a re-analysis of the deposited data

How the results depend on the processing

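The neutrophil-like class stayed below and the macrophage-like class above the other cells under all 9 alternatives run for the summed subunits, and the other 3 classes did not all keep their values. In the order neutrophil-, monocyte-, macrophage-, B cell- and T cell-like, the log2 ratios were -0.75, 0.25, 0.47, -0.44 and -0.0697 at 10% mitochondrial counts, -0.47, 0.39, 0.54, -0.19 and 0.13 with each cell weighted alike, -0.26, 0.46, 0.66, -0.44 and -0.0345 centred on the median gene, -0.58, 0.23, 0.41, -0.44 and -0.0709 on the total without mitochondrial and the 50 most abundant genes, and -1.01, 0.32, 0.39, -0.23 and 0.31 with whole-number values only. Without cells that had counts of 2 or more cardiomyocyte markers they were -0.41, 0.23, 0.83, -0.14 and 0.16, on 96, 43, 4, 85 and 46 cells. Without cells named doublet the first 4 were -0.75, 0.26, 0.46 and -0.43. At resolution 0.5 the first 3 were -0.74, -0.21 and 0.52, since classical monocytes joined the macrophage-like class (183 cells), and at resolution 1.5 the monocyte-like ratio was 0.26.

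Counts of genes at least 1.5-fold apart moved by over 1.5 times as follows. With equal weight per cell, 27 genes were higher in monocyte-like, 15 lower in B cell-like, and 19 higher and 7 lower in T cell-like cells. Centred, 9 were higher in neutrophil-like, 30 higher in monocyte-like, and 58 higher and 4 lower in macrophage-like cells. At resolution 0.5, 17 were lower in monocyte-like and 4 lower in macrophage-like cells. With whole-number values, 12 were higher in neutrophil-like, 8 higher and 17 lower in monocyte-like, 20 lower in macrophage-like, 19 higher and 19 lower in B cell-like, and 28 higher and 4 lower in T cell-like cells. Without cells with cardiomyocyte markers, 18 were higher in monocyte-like, 27 lower in macrophage-like, 14 higher and 13 lower in B cell-like, and 20 higher in T cell-like cells. At a fold of 2, 1 was higher and 5 lower in monocyte-like, 6 higher and 3 lower in macrophage-like, 2 higher and 7 lower in B cell-like, and 7 higher and 4 lower in T cell-like cells. The lower calls of neutrophil-like cells stayed between 45 and 66 under all 11 alternatives.

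Of 54 named genes, each in the class where its log2 ratio was farthest from 0, the sign turned with whole-number values only for Atp5g2 (0.71), Atp5o (0.60) and Cox7c (1.25) in neutrophil-like cells and, from within 1.5-fold, for Atp5md in macrophage-like cells (from 0.43 to -0.30). It turned when centred for Ndufa1 in neutrophil-like cells (from -0.34 to 0.14), and without cells with cardiomyocyte markers for Cox8b (-0.52) and Uqcrc1 (0.28) in neutrophil-like cells. Without cells with cardiomyocyte markers 16 of the 54 moved by over 1.5 times and 7 were no longer past the fold, among them Ndufs1 in T cell-like cells (0.05) and Atp5b (-0.10) and Sdha (-0.34) in neutrophil-like cells. With whole-number values 10 moved and 4 were no longer past it, among them Atp5g1 in neutrophil-like (-0.10) and Cox8a in B cell-like cells (-0.07). Centred, and with each cell weighted alike, 8 each were no longer past it. Without its top cell, an alternative chosen after seeing the data, Cox6a2 in B cell-like cells went from 2.05 to -2.18. Apart from merged classes and fewer cells, which follow from how the alternatives are built, the cause was not tested. No paired analysis was possible because there is 1 library and the results come from no test. Depth limits mainly the assembly factors and tissue-type isoforms, whose neutrophil-like values can rest on 2 or 3 cells.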

Other observations

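Mitochondrial ribosomal proteins, which translate the mitochondrially encoded subunits, were summed after the data were seen. The 78 genes stood at 1813 CPM in neutrophil-like, 3450.05 in B cell-like, 3915 in monocyte-like and 4957 among macrophage-like cells, and at 4355 CPM in T cell-like cells. In neutrophil-like cells 63 were at least 1.5-fold lower and 2 higher, against 46.1% and 14.1% of all genes. The ratio of the sums was 0.438 (95% interval 0.433 to 0.443), which lies below the 0.602 of the structural chain subunits. In T cell-like cells 29 were higher and 4 lower, compared with 11 and 13 of the 98 chain genes and with 25.5% and 28.2% of all genes.

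The 28 unnamed cells, led by Plcb1, Fnip2 and Vav3, had the lowest structural sum of any cluster, 6056 CPM, and the highest level of mitochondrially encoded genes, 77775 CPM. Their cardiomyocyte markers summed to 104 CPM. The 21 cells left out for mitochondrial share stood at 5295 CPM for the structural subunits and 779 CPM for cardiomyocyte markers.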
